A study of Mus musculus with 2 samples.

Results

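The calpains, the cysteine proteases that calcium switches on, and their inhibitor calpastatin were read in single cells sorted as degenerating cone photoreceptors. The members were chosen by gene name. Of the 8 genes listed, 6 had a row among the 17774 genes of the count table (*Capn1*, *Capn2*, *Capn3*, *Capn5*, *Capn7* and *Cast*), while *Capn10* and *Capns1* are not analysed here. Once genes seen in under 3 cells had been dropped, 5 of the 6 remained among 15947 genes. *Capn2* was the gene removed. Only 2 members, *Capn3* and *Capn7*, reached the detection limit, a count in 10% of the cells of 1 library or both.

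*Capn1* and *Capn2* encode the large, catalytic subunits of the classical calpains, which work as pairs with the small regulatory subunit encoded by *Capns1*, and *Cast* encodes calpastatin, which inhibits these pairs. *Capn3*, *Capn5* and *Capn7* encode relatives that do not need this small subunit, and CAPN7 lacks the calcium-binding domain of the classical enzymes. In cones without a working PDE6C, cGMP builds up and is thought to hold cation channels open, and the calcium that enters is one reason why calpain activity has been studied in photoreceptor death. These are facts of the proteins, whereas the data below are RNA counts, which do not measure protease activity.

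Both libraries came from C57BL/6 mice at PN24 that carried the *Pde6c* cpfl1 mutation and the Chrnb4.eGFP transgene, in which the *Chrnb4* promoter drives GFP in cones. One library was from uninjected retinae and the other from retinae injected once into the vitreous at PN14 with GSK-J4, 10 days before collection. GSK-J4 inhibits the Jumonji enzymes that demethylate H3K27. Its dose of 10 µM is the final concentration that the methods derive from an assumed volume of the vitreous. No wildtype retina and no sham injection was sequenced among the samples used here, so the drug, the injection and the plate cannot be told apart. GFP-positive cells were sorted 1 to a well, with 1 library and 1 plate per condition, and no number of animals was given in the sources used here. With 1 library per condition there was no replicate, so no test was run and no P-value is given. Intervals are 95% intervals, exact Poisson for counts and Clopper-Pearson for shares of cells, and cover counting error only.

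The uninjected library held 82 cells and 1113424 counts, with a median of 8118 counts per cell. The library of GSK-J4-treated (hereafter treated) cells held 64 cells and 208578 counts, with a median of 2336 (range over all cells of both libraries 420 to 98250). Where the text says treated cones, it follows the label of these sorted cells only. Cone marker genes took 2.59% of the uninjected and 0.213% of the GSK-J4-treated counts, and 0.0696% of the latter without 1 cell that held 303 of the 445 marker counts. At least 3 different cone markers were found in all 82 uninjected cells and in 0 of the 64 others. No count of any of the 11 cone markers was found in 50 of the 64 GSK-J4-treated cells, so their counts did not show the labelled cell type. The shallowest uninjected cell, with 860 counts, held at least 3 different markers, while the treated median was 2336 counts. The reason was not tested. Of the marker genes of other retinal cells, those of rods took 0.255% and 0.0201% and those of Müller glia 0.111% and 0.0316%, in this order of libraries, and bipolar, amacrine, ganglion, microglia and pigment epithelium markers at most 0.0125% each. Olfactory and vomeronasal receptor genes, which a cone should not use and which serve as a measure of background, took 0.624% and 1.43%. The part of these differences in the values of the calpains was not tested.

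The methods counted reads from the 3′ and the 5′ ends of transcripts, so the RefSeq windows around the annotated starts of the 2 most widely found members are shown, 250 bases before and 50 after each start on GRCm38.p6. Capitals mark CG, the pair of bases that CpG-rich promoters hold in number. *Capn7* lies on chromosome 14 from 31336638 to 31371986 on the plus strand, with 1 window, chr14:31336388-31336687. *Capn3* lies on chromosome 2 from 120456019 to 120504913, also on the plus strand, with 2 windows, chr2:120463343-120463642 and chr2:120476659-120476958. Both *Capn3* windows lie inside this span and neither covers its first base, as spans are from GENCODE and windows from RefSeq.
*Capn7*: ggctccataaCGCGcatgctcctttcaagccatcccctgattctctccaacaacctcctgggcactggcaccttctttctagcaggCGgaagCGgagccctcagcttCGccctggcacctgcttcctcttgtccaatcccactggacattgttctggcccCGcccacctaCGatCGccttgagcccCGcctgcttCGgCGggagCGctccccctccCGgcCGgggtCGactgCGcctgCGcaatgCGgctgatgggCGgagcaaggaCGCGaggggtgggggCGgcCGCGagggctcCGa
*Capn3* first window: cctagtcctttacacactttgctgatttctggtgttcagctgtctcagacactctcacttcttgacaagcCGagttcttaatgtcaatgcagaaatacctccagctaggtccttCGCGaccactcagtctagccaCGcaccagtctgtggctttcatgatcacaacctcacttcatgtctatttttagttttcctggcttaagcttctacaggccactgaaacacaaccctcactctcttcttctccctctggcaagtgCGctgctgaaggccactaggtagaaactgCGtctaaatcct
*Capn3* second window: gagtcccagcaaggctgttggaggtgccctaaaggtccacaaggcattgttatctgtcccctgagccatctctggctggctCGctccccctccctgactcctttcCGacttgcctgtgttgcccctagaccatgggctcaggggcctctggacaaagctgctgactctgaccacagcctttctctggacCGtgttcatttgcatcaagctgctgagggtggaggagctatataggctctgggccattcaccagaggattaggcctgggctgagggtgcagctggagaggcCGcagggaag
The *Capn7* window held 25 CG pairs, a number that 18.4% of all 32851 windows reached. The *Capn3* windows held 6 and 4, which 56.4% and 68.6% of all windows reached, and the median window held 7. No methylation or histone mark was measured in these cells, so the letters are a description of the starts only.

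*Capn7*, the atypical calpain whose protein binds the membrane-scission machinery ESCRT-III, had the most counts of the members, 45 (32.8 to 60.2) in uninjected cones. They came from 17 of 82 cells (20.7%, 12.6 to 31.1%), of which 8 had 1 count, 5 had 2 and 1 each had 3, 4, 8 and 12. In treated cones it had 2 counts (0.242 to 7.22), 1 in each of 2 of 64 cells (3.12%, 0.381 to 10.8%). Scaled to the library totals, the rates were 0.404 (0.295 to 0.541) and 0.0959 (0.0116 to 0.346) per 10000 counts. The intervals of the rates overlapped, while the ratio of the GSK-J4-treated to the uninjected rate was 0.237 with an interval of 0.0279 to 0.908.

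*Capn3*, known best as the muscle calpain and spliced in other forms in the eye, showed the reverse order. It had 1 count (0.0253 to 5.57) in uninjected cones, in 1 of 82 cells (1.22%, 0.0309 to 6.61%), and 11 (5.49 to 19.7) in treated cones. The 11 counts came from 10 of 64 cells (15.6%, 7.76 to 26.9%), 9 cells with 1 count and 1 cell with 2. The rates were 0.00898 (0.000227 to 0.05) and 0.527 (0.263 to 0.944) per 10000 counts and did not overlap, with a ratio of 58.7 and an interval of 8.53 to 2527. Among the 7682 genes past the detection limit, the intervals lay apart with the higher rate in treated cones for 22.0% and with the lower rate there for 24%. *Capn3* passed that limit in treated cells alone, so it entered this comparison through the library in which it was high. It shares 386 exon bases, 7.68% of its own, with *Ganc* on the same strand, and reads there cannot be given to either gene alone.

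*Cast*, the inhibitor, was as rare as *Capn3* among uninjected cones, with 1 count (0.0253 to 5.57), and had 5 (1.62 to 11.7) among treated ones. The 5 counts lay in 4 cells, 3 with 1 count and 1 with 2. Its rates of 0.00898 (0.000227 to 0.05) and 0.240 (0.0778 to 0.559) per 10000 counts did not overlap, and their ratio was 26.7 (2.99 to 1262). *Cast* was below the detection limit in both libraries. The share of 22.0% given above for genes past that limit therefore does not cover it, and no share over genes as rare was computed. *Cast* lies on chromosome 13 from 74692368 to 74808810, and 834 of its exon bases, 7.27%, are shared with *Erap1* on the other strand. Reads there cannot be told apart unless the counting used strand, which is not stated. The same holds for 116 exon bases of *Capn7*, 2.37%, shared with *Sh3bp5* on the other strand. It also holds for 394 exon bases of *Capn1*, 11.8%, shared with *Gm10814* on the other strand.

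The classical catalytic subunits were close to absent from the counts of both libraries. *Capn1*, on chromosome 19 from 5988545 to 6015897, had 2 counts (0.242 to 7.22) in 2 uninjected cells and 3 (0.619 to 8.77) in 2 treated cells. Its rates of 0.0180 (0.00218 to 0.0649) and 0.144 (0.0297 to 0.420) per 10000 counts overlapped, and the ratio of 8.01 had an interval of 0.917 to 95.9. *Capn2*, on chromosome 1 from 182467260 to 182517608, had 0 counts in uninjected and 2 in treated cones, under the floor of 3 counts, and no fold is given. At this depth neither the presence nor a difference of these transcripts could be shown.

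*Capn5*, a calpain known from an inherited inflammatory eye disease in humans, had 8 counts (3.45 to 15.8) in 5 uninjected cells, as 3 cells with 1, 1 with 2 and 1 with 3. In treated cones it had 1 count (0.0253 to 5.57). The rates were 0.0719 (0.0310 to 0.142) and 0.0479 (0.00121 to 0.267) per 10000 counts, with a ratio of 0.667 and an interval of 0.0150 to 4.98, so that a difference was not detectable at this depth. *Capn5* lies on chromosome 7 from 98121559 to 98178274.

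**Figure D1:**
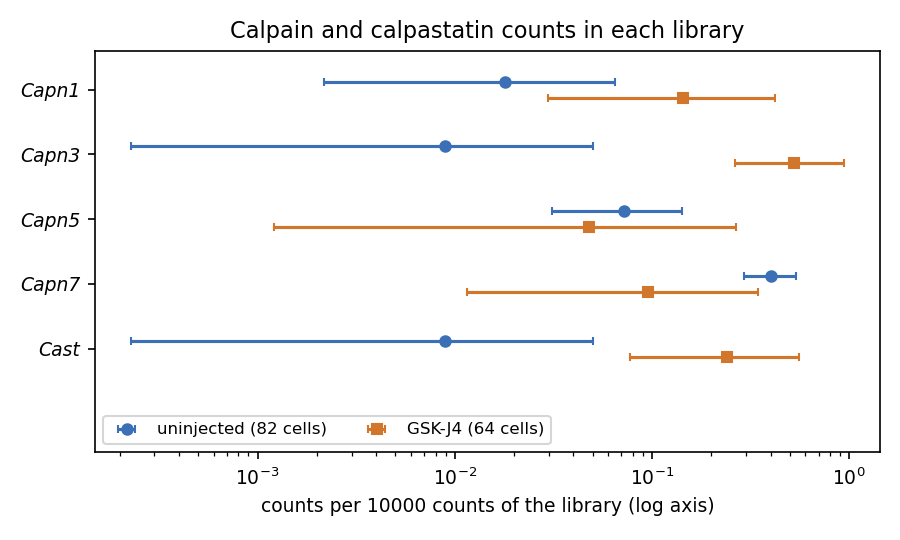
Counts of each calpain and calpastatin gene per 10000 counts of its library (log axis), for 82 uninjected and 64 treated cells, with exact Poisson 95% intervals as bars. The intervals of *Capn3* and *Cast* are apart, with the GSK-J4-treated value higher, while those of *Capn1*, *Capn5* and *Capn7* overlap. Intervals lay apart in that direction for 22.0% of the 7682 genes past the detection limit, which *Cast* did not reach.

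The methods name the Seurat package and a log-fold limit of 0.3 but not the scaling, so a common form of that package was taken here, in which each cell is scaled to 10000 counts and averaged. A log-fold below means ln(treated mean + 1) minus ln(uninjected mean + 1). The log-fold of *Capn3* was 0.45, from means of 0.00324 and 0.568, and that of *Capn7* was -0.20, from means of 0.271 and 0.0382. Thus 1 member passed the size limit of 0.3 upward and none downward, with 2 members eligible, where 20.4% of the 7682 genes lay above 0.3, 24% below -0.3 and 44.4% beyond it in either direction. Such a count says nothing particular about the calpains. The lack of a downward call was set in advance by adding 1 to each mean. From uninjected means of 0.271 and 0.00324, no treated value could give a log-fold below -0.3. With 0.1 added in place of 1, *Capn7* was at -0.99 and *Capn3* at 1.87. Each of the 2 was eligible only through the library in which it was high, *Capn7* through uninjected and *Capn3* through treated cells. Of all genes, 6783 reached the 10% limit in uninjected and 3137 in treated cells. The genes called lower in the lists below also reached it in uninjected cells alone. The call of *Capn3* rested on 1 cell, with 2 of its 11 counts in a total of 1077, and its log-fold was 0.25 without that cell. The log-folds of *Cast*, *Capn1* and *Capn5*, which were below the 10% limit in both libraries, were 0.12, 0.088 and -0.023.

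**Figure D2:**
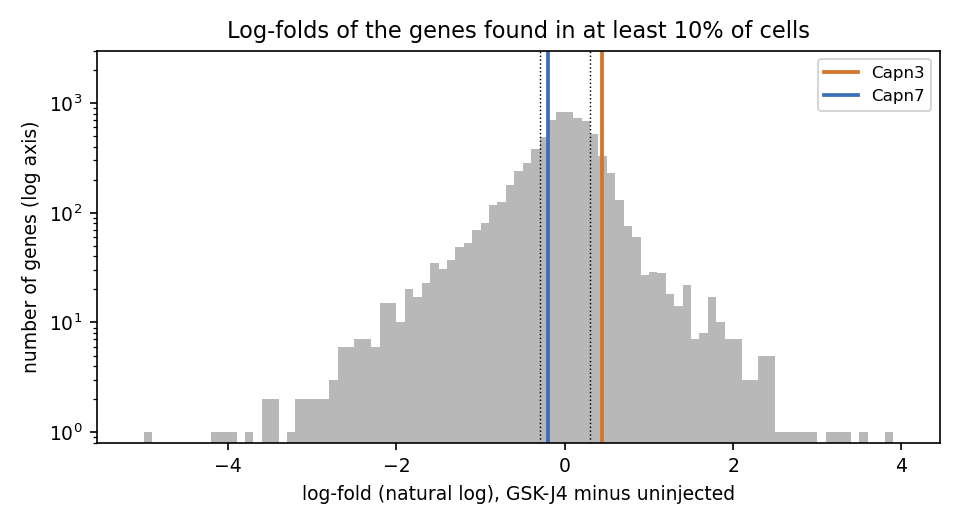
Log-folds (natural log, GSK-J4-treated minus uninjected) of the 7682 genes past the detection limit, as numbers of genes per step of 0.1 on a log axis, with dotted lines at the size limit of 0.3 in each direction. *Capn3* at 0.45 lies just beyond the limit and *Capn7* at -0.20 lies within it.

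Seen together, the members were about as widespread in either library. At least 1 count of the 5 members was found in 22 of 82 uninjected cells (26.8%, 17.6 to 37.8%) and in 16 of 64 treated cells (25%, 15 to 37.4%), at depths that differed. Cells with a count were the deeper ones, with medians of 24113 against 5624 total counts in uninjected and 5226 against 1796 in treated cones. Counts of 2 members in 1 cell occurred in 4 uninjected and 3 treated cells, and no cell had more than 2. The single uninjected count of *Capn3* and that of *Cast* fell in the same cell, of 37670 counts. The deepest treated cell, with 15371 counts and no cone marker count, held the only *Capn5* count of its library, 1 of the 2 *Capn7* counts and also 1 of the 2 *Capn2* counts.

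Summed over the 5 members, uninjected cones gave 57 counts (43.2 to 73.9) and treated cones 22 (13.8 to 33.3). These are 0.512 and 1.05 per 10000 counts, a ratio of 2.06 (1.20 to 3.42), beside receptor genes at 0.624% and 1.43% of all counts. The sum joins 2 members with log-folds of opposite sign, *Capn3* at 0.45 and *Capn7* at -0.20, the latter within a size limit that it could not pass downward. Without *Capn7*, 12 and 20 counts were left, a ratio of 8.90 (4.14 to 20), and without *Capn3*, 56 and 11 counts, a ratio of 1.05 (0.495 to 2.02). *Capn7* gave 45 of 57 counts in uninjected cones and *Capn3* gave 11 of 22 in treated cones. The genes left out were chosen after the data were examined and the counts are few, so no shift within the family is read from them.

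To allow for depth, each cell was thinned to 867 counts, which left 81 uninjected and 50 treated cells. *Capn7* then had a count in 2 uninjected cells (2.47%) and in 0 of 50 treated cells, and *Capn3* in 0 of 81 and in 3 of 50 (6%). The thinned levels are near that of a single count, so no change is read from them.

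Shares of cells with a count were set beside those of 396 olfactory and vomeronasal receptor genes left by the gene filter, which had a count in a median of 3 uninjected and 2 treated cells each. As many uninjected cells as for *Capn7*, 17, or more were reached by 20 of these genes (5.05%). For *Capn3*, 26 of them (6.57%) were found in 10 or more treated cells. *Cast* in 4 treated cells was reached by 101 (25.5%), and *Capn5* in 5 uninjected cells by 121 (30.6%). For *Capn1* the numbers were 315 in uninjected and 254 in treated cones. The numbers of cells of *Capn1*, *Capn3* and *Cast* in uninjected cones, and of *Capn1*, *Capn5* and *Capn7* in treated cones, were at or below the receptor median and are read as background. *Capn7* in uninjected and *Capn3* in treated cones were above it, as were *Capn5* and *Cast* by 2 cells each. Among all genes left by the gene filter, 21.7% were in as many uninjected cells as *Capn7* or more. For *Capn3* in treated cells the share was 11.4%.

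**Figure D3:**
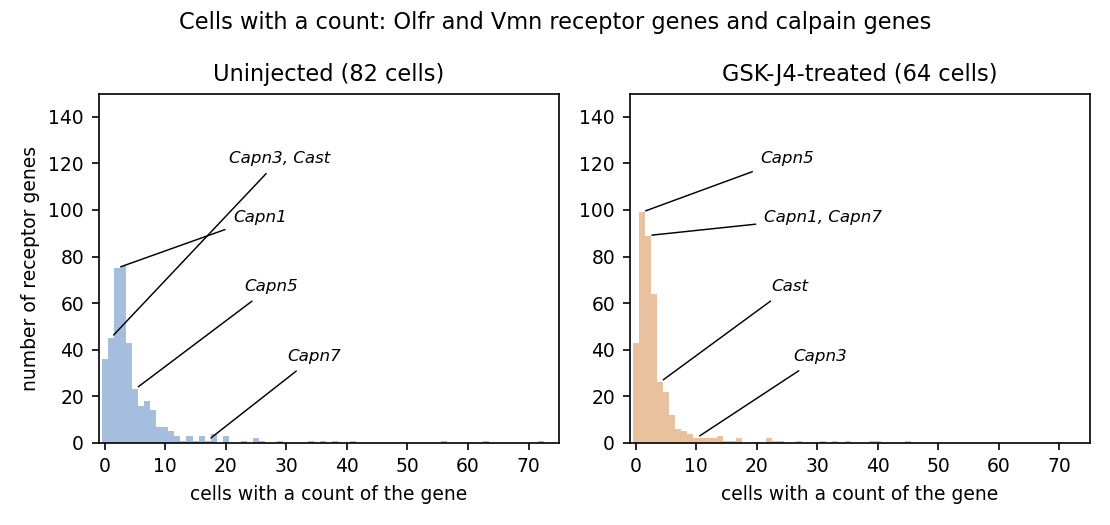
Number of Olfr and Vmn receptor genes (bars, 396 genes) by the number of cells with a count, in uninjected (left) and GSK-J4-treated (right) cells, with the calpains and calpastatin marked at their own numbers of cells. *Capn7* at 17 uninjected cells and *Capn3* at 10 treated cells lie in the tail, and the other members lie in or beside the main body.

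Within the uninjected library, *Capn7* went with the side of the plate, read from the well names. Wells in columns 1 to 6 and 7 to 12 held 39 and 43 cells with similar totals of 546722 and 566702 counts. *Capn7* had 6 counts in 3 cells of the first side (7.69%, 1.62 to 20.9%) and 39 counts in 14 cells of the last side (32.6%, 19.1 to 48.5%), a rate ratio of 6.27 (2.64 to 18.1). Its log-fold between the sides was 0.34, where 14.6% of the 8823 genes found in 10% of the cells of a side or more lay above 0.3 and 15.9% lay below -0.3. Without the cell with 12 counts the ratio was 4.54 (1.84 to 13.4) and the log-fold 0.26, under the limit. Compared within 1 side, the log-fold of *Capn7* between GSK-J4-treated and uninjected cones was -0.049 in columns 1 to 6 and -0.31 in columns 7 to 12, while that of *Capn3* was 0.52 and 0.36. In columns 1 to 6 *Capn3* was in 3 of 33 treated cells (9.09%), under the detection limit. The 2 *Capn7* counts of treated cones also lay in columns 7 to 12. What the sides stand for is not given in the sources used here.

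**Figure D4:**
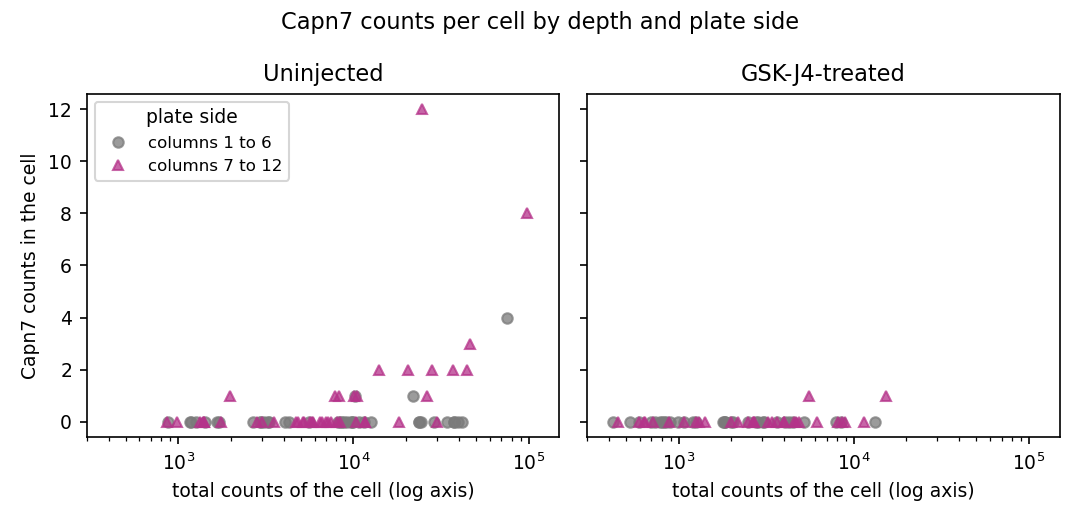
*Capn7* counts of each cell against the total counts of the cell (log axis), for uninjected (left) and GSK-J4-treated (right) cells, with circles for plate columns 1 to 6 and triangles for columns 7 to 12. Uninjected cells with a count are mostly triangles (14 of 17), reach 12 counts and lie toward higher totals, and both treated cells with a count are triangles.

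Among the treated cells, 14 had a count of a cone marker and 50 had none. *Capn3* had 3 counts in 3 of the 14 cells and 8 counts in 7 of the 50 cells, which held 69195 and 139383 counts in total. *Cast* had 3 and 2 counts, *Capn1* 2 and 1, *Capn7* 0 and 2, and *Capn5* 0 and 1. The 3 cells with *Capn3* and a cone marker held only 1, 1 and 2 marker counts, so the split does not show *Capn3* in cells rich in cone transcripts.

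The wider calpain family was as sparse. Of 8 other family genes listed, 5 had a row and 4 passed the gene filter, and only *Capn15*, a calpain with zinc fingers, passed the detection limit. *Capn15* was counted 39 times (27.7 to 53.3) in uninjected cones and 8 times (3.45 to 15.8) in treated ones. The rates of 0.350 (0.249 to 0.479) and 0.384 (0.166 to 0.756) per 10000 counts overlapped, and the log-fold was -0.089. All 39 uninjected counts came from columns 7 to 12, the side that also held most *Capn7* counts. With a floor of 3 counts set for columns 1 to 6, this is 12.5-fold higher. The lower end of the interval of the rate ratio was 9.72, which allows a smaller fold. *Capn12* had 8 and 0 counts.

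Proteins that calpains are known to cut, with the kinase CDK5 listed beside its cut activator p35, were given as a list of 15 genes. Of these, 14 passed the gene filter and 8 passed the detection limit. None lay above the size limit and 2 of the 8 (*Cdk5* and *Map2*) lay below it, a share near the 24% of all genes, with a median log-fold of -0.078 over the 8 genes against -0.0050 over all 7682. For *Slc8a3*, a sodium-calcium exchanger, the libraries held 252 (222 to 285) and 17 (9.90 to 27.2), giving -0.25, and -0.59 with summed libraries. For *Map2*, a neuronal microtubule protein, they held 188 (162 to 217) and 11 (5.49 to 19.7), giving -0.50. The highest uninjected and treated cells held 95 and 8 of the *Slc8a3* counts and 70 and 7 of the *Map2* counts. Without these cells the log-folds were -0.28 for *Slc8a3* and -0.61 for *Map2*. *Cdk5*, the kinase whose activator p35 calpain cleaves, had 66 (51.0 to 84.0) and 0 counts. With a floor of 3 counts put in place of the 0, this is 4.12-fold lower in treated cones. The upper end of the interval of the rate ratio was 0.307, which allows a smaller fold.

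Genes of the route from cGMP to calcium gave 6876 and 113 counts. Of 15 listed, 14 passed the detection limit, 1 lay above the size limit and 6 below it, beside 20.4% and 24% of all 7682 genes, with a median log-fold of -0.17. The list shares 4 genes with the cone markers, which took 2.59% and 0.213% of all counts, and their part in these values was not tested. *Guca1a*, the calcium sensor of the cone guanylate cyclase, was counted 5193 times (5053 to 5336) in uninjected cones and 0 times in treated ones. This is 324-fold lower with the floor of 3 counts put in place of the 0. The upper end of the interval of the rate ratio was 0.00379, which allows a smaller fold. *Pde6c*, the mutated gene itself, *Cngb3*, *Calm2* and *Calm3* were also below the limit, with *Pde6c* at -0.54, or -0.26 without its highest cell. *Prkg1*, a cGMP-dependent protein kinase, was the gene above it, at 0.40 from 40 (28.6 to 54.5) and 16 (9.15 to 26.0) counts, but at 0.26 with summed libraries and 0.21 with median-ratio size factors.

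Cysteine proteases outside the calpains, with cathepsin D and 2 cathepsin inhibitors listed beside them, were read more often than the calpains in uninjected cones. Of 11 genes listed, 10 had a row and 8 passed the detection limit, with 6 below the size limit and 1 above it, beside 24% and 20.4% of all genes, and a median log-fold of -0.95. *Cst3*, which encodes the cathepsin inhibitor cystatin C, gave 761 (708 to 817) and 2 (0.242 to 7.22), a log-fold of -2.40, and of -1.66 without its highest cells. *Ctsb*, *Ctsd*, *Ctsl* and *Cstb* were also below the limit. *Casp6*, an executioner caspase, was the gene above it, at 0.66 from 364 (328 to 403) and 224 (196 to 255) counts. One treated cell gave 153 of the 224 counts, and the log-fold was 0.32 without the highest cell of each library and 0.14 with median-ratio size factors.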

How the data were processed

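The values deposited are raw counts, whole numbers that the authors did not normalize, for 17774 genes and 151 cells. Per the methods, reads were demultiplexed by plate, cell barcode and primer, aligned in the CLC Genomics Workbench, cleared of PCR duplicates by UMI and mapping position, and counted with featureCounts (also named in the submitters' processing notes) on Gencode M17, with 3′ and 5′ counts summed. The genome is named there as GRCh38 Mus-Musculus, a human build number. Gene positions were taken from GENCODE vM21 on GRCm38, and start windows are from RefSeq on GRCm38.p6. As in the methods, genes seen in under 3 cells were dropped, as were cells under 200 genes or over 5% mitochondrial counts. This kept 146 cells and 15947 genes, with 82 of 85 uninjected and 64 of 66 treated cells. The paper reports 85 untreated cones after its quality control and more treated cones than were deposited, so its cell sets differ from those used here. The median mitochondrial share of the cells kept was 0.949% in uninjected and 0.0145% in treated cells. The 5 cells removed held no count of any member. Columns with GSK in their names were taken as the treated sample, although they also hold the word adult while the labels give PN24. The others name the mutant line and P24 but no treatment, and were taken as uninjected because GSK is absent from them. The batch correction of the methods was not applied, and the scaling to 10000 counts with a natural log of the mean plus 1 was chosen here.

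Log-folds were computed over all genes (scipy 1.17.1, numpy 2.4.6 and pandas 2.3.3 under Python 3.11.15) and checked on simulated Poisson counts. The known folds were set only in genes with far more counts than any member has. The check therefore does not cover log-folds at the members' few counts. Ratios of rates have exact conditional 95% intervals. No doublet caller was run, and 54 well positions occur in both libraries. The members and lists were chosen with earlier results of these data known. Named genes are the members, the 2 genes with the most counts of each list and, chosen after their values were seen, those beyond the size limit. Some genes of the lists are counted but not reported here by name. A rule to name genes of like pattern applied to members in at least 25% of uninjected cells, and there were 0.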

Additional observations from a re-analysis of the deposited data

How the results depend on the processing

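With 1 library per condition the results rest on few counts, and depth limits what could be seen for every member. No paired analysis was possible because each condition has 1 library. The number of members above the size limit, 1 as reported, was 0 after thinning, in the wells of columns 1 to 6, without the cell with the most counts, with a detection limit of 25% of cells, and with a size limit of 0.5. The number below it, 0 as reported, was 1 in the wells of columns 7 to 12 and with a pseudocount of 0.1, in both cases *Capn7*. The reported 0 was set in advance, since 1 was added to each mean. After thinning and at the 25% limit no member was eligible, and in columns 1 to 6 *Capn3* was not. The ratio of the members' summed means in treated to uninjected cones was 2.62 as means over cells and 2.06 for summed libraries, the value given above. With median-ratio size factors, which moved the median log-fold of all genes from -0.0050 to -0.14 and put *Capn3* at 0.35 and *Capn7* at -0.28, the ratio was 1.47. It was 9.19 in the wells of columns 1 to 6 and 1.41 in those of columns 7 to 12. As means over cells it was 15.4 without *Capn7* and 0.879 without *Capn3*, where the summed libraries gave 1.05 (0.495 to 2.02), so no direction is set without *Capn3*. Both omissions were chosen after the data were examined. Under 11 alternatives the log-fold of *Capn3* was positive in 11, from 0.25 to 1.87, and that of *Capn7* was negative in 11, from -0.99 to -0.049, with the largest sizes from the pseudocount of 0.1. All reuse counts of the same libraries, and most could hardly change a sign, so the shared sign is no independent support. The alternatives comprise all deposited genes, all deposited cells, a minimum of 500 genes per cell and, added after the data were examined, treated cells with a cone marker count.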
